A study of Mus musculus with 24 samples.

Results

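Bone marrow-derived macrophages (BMDMs) of wild-type (WT) mice were compared after M1 and after M2 polarization without dopamine (DA). The comparison took 6 of the 24 deposited RNA-seq libraries, namely the 3 labelled as untreated WT M1 macrophages and the 3 labelled as untreated WT M2 macrophages. It covered the 17109 genes listed in the files of both stimuli, of which 10734 reached an FPKM of 1 in at least 3 of the 6 libraries and were tested. The rest of the series held the same cells treated with DA and the cells of *DRD5*-/- mice, which lack a dopamine receptor. No library came from unstimulated cells, so a gene higher in M1 may have risen in M1 or fallen in M2, and the reverse. The labels gave an age of 10 weeks, and the methods named male C57BL/6 mice for the study. M1 cells had received LPS at 100 ng/ml with IFN-γ at 50 ng/ml for 12 h, and M2 cells had received IL-4 with IL-13, each at 10 ng/ml, for the same time. Both groups had first been grown from the marrow of tibias and femurs in medium conditioned by L929 cells, a fibroblast line whose supernatant carries the macrophage growth factor CSF1. The labels gave bone as the tissue, while their growth note spoke of colons. None of the sources used here says whether the 3 libraries of a group came from separate mice or cultures, so p-values measure the spread between these libraries, which may be technical. The M1 and M2 libraries were also deposited as separate sets with different gene lists, and a difference between the sets and the difference between the stimuli cannot be told apart.

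LPS, a bacterial cell wall component, binds TLR4 and activates NF-κB and the interferon regulatory factors (IRFs). IFN-γ acts through Janus kinases and transcription factors that bind GAS elements, and interferons of type I add the ISRE, a site that IRFs bind. IL-4 and IL-13 share the receptor chain IL-4Rα and signal through STAT6, which binds TTC and GAA separated by 4 bases. The M1 and M2 states are the ends of a range that macrophages can take, and are commonly told apart by *Nos2* and *Il12b* on one side and by *Arg1*, *Mrc1* and *Chil3* on the other.

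The values were FPKM, which are fragments mapped to a gene, divided by the length of its transcript and by the number of mapped fragments. Their sum over all genes was 484364 to 488250 in the M1 libraries and 494181 to 497444 in the M2 libraries. An FPKM of 1 was reached by 9860 to 9879 genes in the M1 libraries and by 10432 to 10444 in the M2 libraries. The files hold no read counts, so the sequencing depth is unknown and no interval from counts can be given. Libraries of a group correlated with each other at r of 0.998 or more across genes, and with the libraries of the other group at 0.895 or less. The first principal component of the 6 libraries took 98.8% of the variance and separated M1 from M2. Macrophage genes were abundant in both groups, with 7 of the 15 macrophage identity genes higher in M1 and 7 in M2. *Adgre1*, which encodes F4/80, stood at 599 to 602 FPKM in M1 and 445 to 457 in M2, and *Csf1r*, the CSF1 receptor, at 307 to 308 FPKM in M1 and 966 to 997 in M2.

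Most genes differed. With limma on log2(FPKM + 1), an adjusted p under 0.001 and a difference of at least 1.2-fold, the cutoff of the study's methods, 8290 of the 10734 tested genes passed (77.2%). Of these, 2417 were higher in M1 (22.5% of the tested genes) and 5873 were higher in M2 (54.7%), and the remaining 2444 did not pass. A difference of at least 4-fold was reached by 474 genes higher in M1 (4.42%) and by 554 higher in M2 (5.16%). The direction of small differences depends on the scale, because FPKM are shares of a library. The 474 genes took 20.9% to 21.1% of the FPKM of an M1 library and 1.51% to 1.53% of an M2 library, and the median difference of all tested genes was -0.39 on the log2 scale. With median-of-ratios scaling that median was 0.00, and the share of called genes that were higher in M1 was 50.2% in place of 29.2%. With quantile normalization the share was 44.5%. Among genes with a 4-fold difference the share higher in M1 was 46.1% as deposited and 67.2% with median-of-ratios scaling. All 2417 genes higher in M1 and 3895 of the 5873 genes higher in M2 were called in the same direction with median-of-ratios scaling, and 0 were called in the opposite direction. The size factors of that scaling differed between M1 and M2 by -0.45 on the log2 scale, which moves genes towards M1. The keeping of all genes higher in M1 and the 0 reversals therefore follow largely from the scaling. Differences are given below as M1 minus M2 on the log2(FPKM + 1) scale, as deposited unless stated, which understates the differences of genes with low FPKM. Genes written as higher in a group passed both criteria, and list counts and medians are to be read against the 22.5%, the 54.7% and the -0.39 of all tested genes. As deposited, with median-of-ratios scaling and with quantile normalization alike, 2402 of the 10734 tested genes were higher in M1 and 3724 in M2. List counts on all 3 scales are to be read against these.

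**Figure D1:**
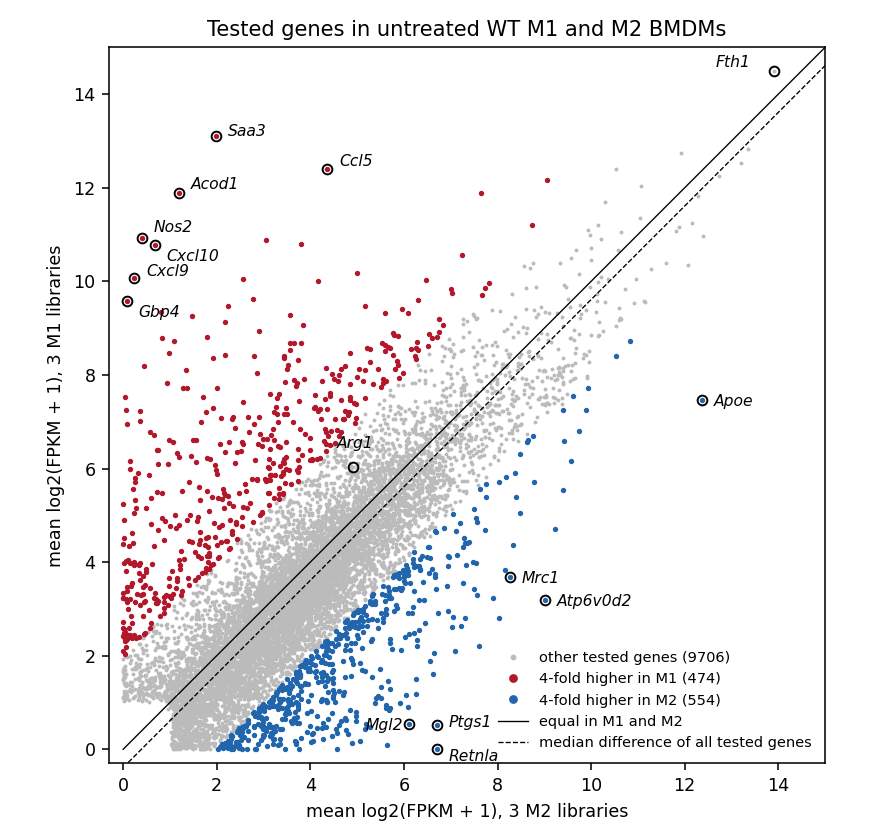
Mean log2(FPKM + 1) of the 10734 tested genes in the 3 M2 libraries (x axis) and the 3 M1 libraries (y axis), with the 474 genes 4-fold higher in M1 in red and the 554 genes 4-fold higher in M2 in blue. The solid line marks equal values and the dashed line the median difference of -0.39, and *Arg1* lies above both lines, on the M1 side.

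The M1 markers were higher in the M1 libraries, and 2 of the 3 M2 markers were higher in the M2 libraries. *Nos2* (chr11:78920787-78960226 in GRCm38.p6), which encodes the inducible nitric oxide synthase, stood at 1951, 1938 and 1917 FPKM in the M1 libraries and at 0.33, 0.32 and 0.33 in the M2 libraries. The groups were 10.51 ± 0.0279 (SE, n = 3 and 3) apart on the log2 scale, with an adjusted p of 2.32e-17 in limma. *Il12b* (chr11:44400063-44414677), the p40 subunit of IL-12, was at 19.9, 20.2 and 20 FPKM in M1 and was listed at 0 in all 3 M2 libraries. *Mrc1* (chr2:14229414-14332023), the mannose receptor CD206, was at 11.6, 11.8 and 12 FPKM in M1 and at 303, 299 and 315 in M2. Its groups lay far apart, with a difference of -4.58 ± 0.0312 (adjusted p = 5.72e-15, limma). *Chil3* (chr3:106147554-106167564), the chitinase-like protein Ym1, was at 1.53, 1.59 and 1.45 FPKM in M1 and at 43.4, 44.5 and 46.4 in M2, a difference of -4.18 ± 0.046 (adjusted p = 1.25e-13, limma).

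*Arg1*, the remaining M2 marker, was found in both groups and was higher in M1. Without unstimulated cells, whether IL-4 and IL-13 raised *Arg1* cannot be told. *Arg1* (chr10:24915207-24927470), the arginase that competes with *Nos2* for arginine, was at 64.5, 64.7 and 64 FPKM in the M1 libraries and at 28.5, 29.9 and 28.4 in the M2 libraries. Each M1 library was above each M2 library, and the difference was 1.13 ± 0.0315 (adjusted p = 1.16e-10, limma). It was 1.57 with median-of-ratios scaling and 1.24 with quantile normalization, so *Arg1* was higher in M1 on all 3 scales. Both alternatives also moved the median of all tested genes towards M1, from -0.39 to 0.00 and to -0.09. In *DRD5*-/- BMDMs, *Arg1* was at 59.9, 61.9 and 62.5 FPKM in M1 and at 28.4, 29.3 and 27.8 in M2. These are other libraries, but of the same M1 and M2 sets, so stimulus and set cannot be told apart there either. The related *Arg2*, the mitochondrial arginase, was also higher in M1, at 7.63 to 8.9 FPKM in M1 and 1.27 to 1.59 in M2.

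**Figure D2:**
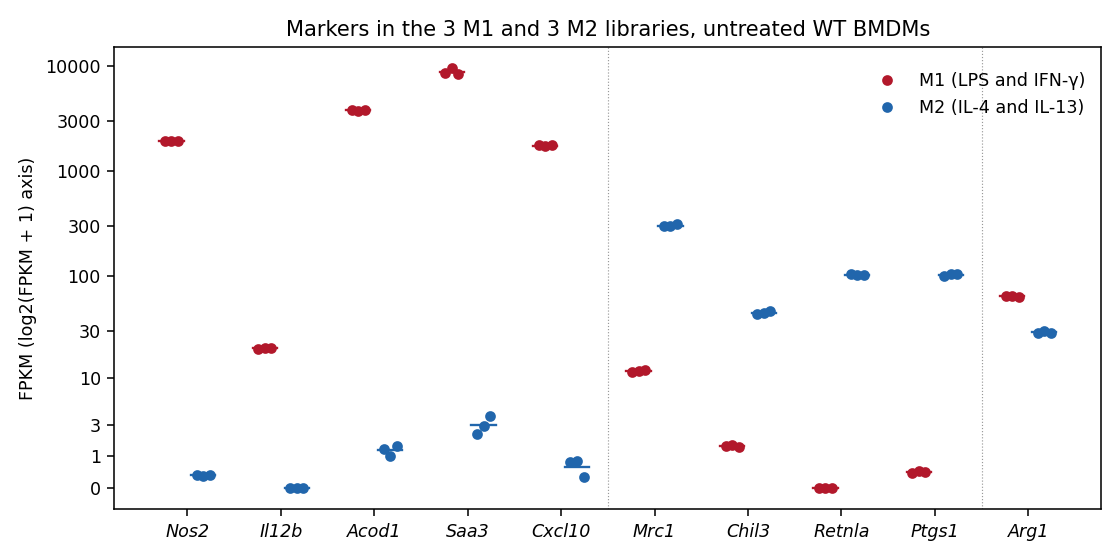
FPKM of 10 genes on a log2(FPKM + 1) axis in the 3 M1 libraries (red) and the 3 M2 libraries (blue) of untreated WT BMDMs, where each point is a library and each line the mean of its group. *Arg1* at the right is higher in M1, at 64 to 64.7 FPKM against 28.4 to 29.9 in M2.

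The upstream sequence of 4 of the named genes is shown because it holds letters that match the searched motifs. The windows are the 250 bases before the RefSeq start site in GRCm38.p6, 5′ to 3′ on the strand of the gene, with matches to the searched motifs in capitals. The 4 genes were chosen from the named genes after the matches were seen, and the promoter table held no entry for *Nos2* or *Arg1*.
Cxcl10 (chr5:92348890-92349139, minus strand): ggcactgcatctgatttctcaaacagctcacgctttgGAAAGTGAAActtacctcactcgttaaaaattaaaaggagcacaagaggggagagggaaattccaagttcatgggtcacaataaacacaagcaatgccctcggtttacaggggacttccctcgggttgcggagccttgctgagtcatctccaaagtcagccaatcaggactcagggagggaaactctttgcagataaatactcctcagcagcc
Gbp2 (chr3:142620413-142620662, plus strand): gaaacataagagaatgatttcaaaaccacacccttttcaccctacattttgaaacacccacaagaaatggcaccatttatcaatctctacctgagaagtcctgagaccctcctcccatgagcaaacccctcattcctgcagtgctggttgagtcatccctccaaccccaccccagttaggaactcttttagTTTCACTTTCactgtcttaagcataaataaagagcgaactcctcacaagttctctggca
Retnla (chr16:48842359-48842608, plus strand): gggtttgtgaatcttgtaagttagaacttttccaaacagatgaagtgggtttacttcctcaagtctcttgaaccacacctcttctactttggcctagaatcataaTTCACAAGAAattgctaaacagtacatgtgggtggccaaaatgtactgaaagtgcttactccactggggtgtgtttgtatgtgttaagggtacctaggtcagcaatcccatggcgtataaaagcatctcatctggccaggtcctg
Chil3 (chr3:106167565-106167814, minus strand): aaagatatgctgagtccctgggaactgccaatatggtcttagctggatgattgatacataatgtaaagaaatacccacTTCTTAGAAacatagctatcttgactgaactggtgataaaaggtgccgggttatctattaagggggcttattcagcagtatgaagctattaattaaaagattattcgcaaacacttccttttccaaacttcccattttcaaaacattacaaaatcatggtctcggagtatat
In *Cxcl10* and *Gbp2*, both higher in M1, the capitals are letters of the ISRE, which begin 213 bases before the start in *Cxcl10* and, on the opposite strand, 59 bases before it in *Gbp2*. In *Retnla*, higher in M2, they are a match to the STAT6 spacing that begins 145 bases before the start. In *Chil3*, also higher in M2, they are a match to the GAS spacing that begins 172 bases before it. The *Chil3* window shown held no match to the STAT6 spacing. Whether any of these letters act on the genes was not tested.

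Windows of 300 bases, from 250 before to 50 after the start, were searched on both strands in RefSeq promoters of GRCm38.p6, which covered 78.1% of the genes 4-fold higher in M1, 81.9% of those 4-fold higher in M2 and 80.9% of all tested genes. A gene can have several windows, and matches to different motifs may overlap. The ISRE (GAAANNGAAA) was in 79 of the 461 windows of genes 4-fold higher in M1 (17.1%), in 14 of the 615 windows of genes 4-fold higher in M2 (2.28%), in 3.45% of the 11092 windows of tested genes and in 3.44% of all 32851 windows. The GAS spacing (TTCNNNGAA) was in 9.54%, 5.37%, 6.96% and 8.3% of the same windows. The STAT6 spacing (TTCNNNNGAA) was in 7.59%, 7.32%, 5.55% and 6.95%, and a strict form of the NF-κB motif (GGGA, any base, TTTCC) in 1.08%, 0.325%, 0.469% and 0.411%. Other forms of the NF-κB motif were not searched and would stand in lower case in the sequences shown, so these shares do not count all NF-κB sites. These shares are a description of letters in short windows and were not tested.

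The genes with the largest differences in favour of M1 encode an acute phase protein, metabolic enzymes, chemokines and interferon-induced defence proteins. *Saa3*, a serum amyloid A protein made by macrophages, stood at 8565, 9408 and 8403 FPKM in M1 and at 2.26, 2.91 and 3.82 in M2, a difference of 11.12 ± 0.113. In each M1 library it was second in FPKM to *Fth1*, the ferritin heavy chain, alone. *Acod1*, the enzyme that makes itaconate from a TCA cycle intermediate, stood at 3763, 3746 and 3797 FPKM in M1 and at 1.34, 1.04 and 1.52 in M2, a difference of 10.68 ± 0.063. *Cxcl10* and *Cxcl9*, chemokines that draw T cells through CXCR3, followed *Nos2*: *Cxcl10* was at 1760.5, 1729 and 1752 FPKM in M1 and at 0.78, 0.81 and 0.27 in M2. *Cxcl9* was at 1072, 1048 and 1119.7 FPKM in M1 and at 0.12, 0.24 and 0.18 in M2. The remaining 7 of the 12 largest were *Gbp4*, *Iigp1*, *Ccl5*, *Ifi205*, *Gbp2*, *Oasl1* and the complement factor *Cfb*, with differences between 7.74 and 9.49. Among all tested genes, 66 were at least 32-fold higher in M1 and 10 were at least 32-fold higher in M2. All 24 tested genes of the list of LPS and IFN-γ activation were higher in M1, against 22.5% of all tested genes, 22 of them at least 4-fold, with a median difference of 5.82. They included the cytokines *Il1b* (324 to 334 FPKM in M1 and 2.67 to 3.03 in M2), *Il6* (21.7 to 22.4 FPKM in M1 and 0 to 0.05 in M2) and *Tnf* (103 to 107 FPKM in M1 and 5.85 to 7.09 in M2) and the costimulatory molecule *Cd86* (102 to 106 FPKM in M1 and 7.75 to 8.14 in M2). The smallest difference of the list was that of *Irf5*, a factor linked to M1 polarization, at 202 to 215 FPKM in M1 and 113 to 122 in M2 (0.82).

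The interferon genes were higher in M1 without an exception among those tested. All 17 tested interferon-induced GTPases, which attack the vacuoles of intracellular microbes, were at least 4-fold higher in M1, with a median difference of 5.65. *Gbp4* was at 753, 759.8 and 772 FPKM in M1 and at 0.03, 0.08 and 0.07 in M2, and *Gbp2* at 1872, 1863 and 1901 in M1 and at 7.29, 7.48 and 7.1 in M2. *Gbp10* was listed in the M1 files alone, at 29.6, 29.4 and 29.7 FPKM, and was not tested. All 34 other interferon-stimulated genes were higher in M1 as well, 31 of them at least 4-fold, with a median of 3.36. *Rsad2*, the antiviral enzyme viperin, stood at 1033 to 1071 FPKM in M1 and 4.83 to 4.99 in M2, and *Isg15*, a ubiquitin-like modifier, at 1019.7 to 1025 FPKM in M1 and 16.1 to 17.7 in M2. The values of *Isg15* in M2 were above 10 FPKM, so interferon-stimulated genes were detected in the M2 libraries too. The *Gbp*, *Oas* and *Ifit* families hold near-identical copies, and how reads shared by copies were assigned is not given in the sources used here.

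The genes with the largest differences in favour of M2 were *Retnla*, *Ptgs1* and *Atp6v0d2*. *Retnla*, the resistin-like protein FIZZ1, was listed at 0 in all 3 M1 libraries and stood at 105, 103 and 104 FPKM in M2. *Ptgs1*, the constitutive cyclooxygenase, was at 0.41, 0.47 and 0.44 FPKM in M1 and at 101, 105 and 105 in M2, a difference of -6.18 ± 0.0418. *Atp6v0d2*, a subunit of the vacuolar proton pump that osteoclasts also express, was at 7.99, 8.06 and 8.39 FPKM in M1 and at 507, 518 and 518 in M2, a difference of -5.82 ± 0.0297. The 12 largest were taken among genes whose groups did not overlap, so the lack of overlap of these 3 genes follows from that choice. The C-type lectins *Mgl2* (0.42 to 0.47 FPKM in M1 and 66.5 to 68.5 in M2) and *Clec10a* (0.84 to 0.9 FPKM in M1 and 65.6 to 69.5 in M2) and the nuclear receptor *Pparg* (2 to 2.06 FPKM in M1 and 96.2 to 98.7 in M2), a regulator of lipid genes, were among the next. The remaining 6 of the 12 largest were *Rasgrp3*, *Fcrls*, *Rab3il1*, *Dcn*, *Daglb* and *Sod3*, with differences between -5.55 and -4.93. *Mgl2* and *Clec10a* are close copies of each other, so the split of their reads is uncertain.

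Of the 32 tested genes of the IL-4 and IL-13 list, 26 were higher in M2, 17 of them at least 4-fold, and 6 were higher in M1. The median was -2.25. With median-of-ratios scaling 24 were higher in M2, *Klf4* and *Stab1* being the ones lost. Beside the genes named above, the transcription factors *Egr2* (0.77 to 0.88 FPKM in M1 and 48.8 to 53.3 in M2) and *Myc* (0.23 to 0.33 FPKM in M1 and 21.9 to 23.6 in M2) were higher in M2 by 4.81 and 4.22. The 6 higher in M1 were *Il4ra*, *Ccl22*, *Tgm2*, *Slc7a2*, *Arg1* and *Cish*. *Il4ra*, the receptor chain of both M2 cytokines, stood at 243, 245 and 235 FPKM in M1 and at 22.2, 21.7 and 21.1 in M2, a difference of 3.42 ± 0.0314. *Ccl22*, a chemokine for CCR4, stood at 53.4, 53.8 and 55.1 FPKM in M1 and at 6.64, 7.89 and 7.11 in M2, and *Tgm2*, a transglutaminase used as an M2 marker, at 372 to 376 FPKM in M1 and 69.6 to 71.2 in M2. *Slc7a2*, the arginine transporter CAT2, stood at 68.1 to 69.8 FPKM in M1 and 26.8 to 28.9 in M2, in the same direction as *Arg1*. *Cish*, a feedback inhibitor of STAT5, had the smallest difference of the 6, at 5.93 to 6.84 FPKM in M1 and 3.19 to 4.07 in M2. *Chil4*, the close relative of *Chil3*, was listed in the M2 files alone, at 5.93, 5.28 and 7.14 FPKM.

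**Figure D3:**
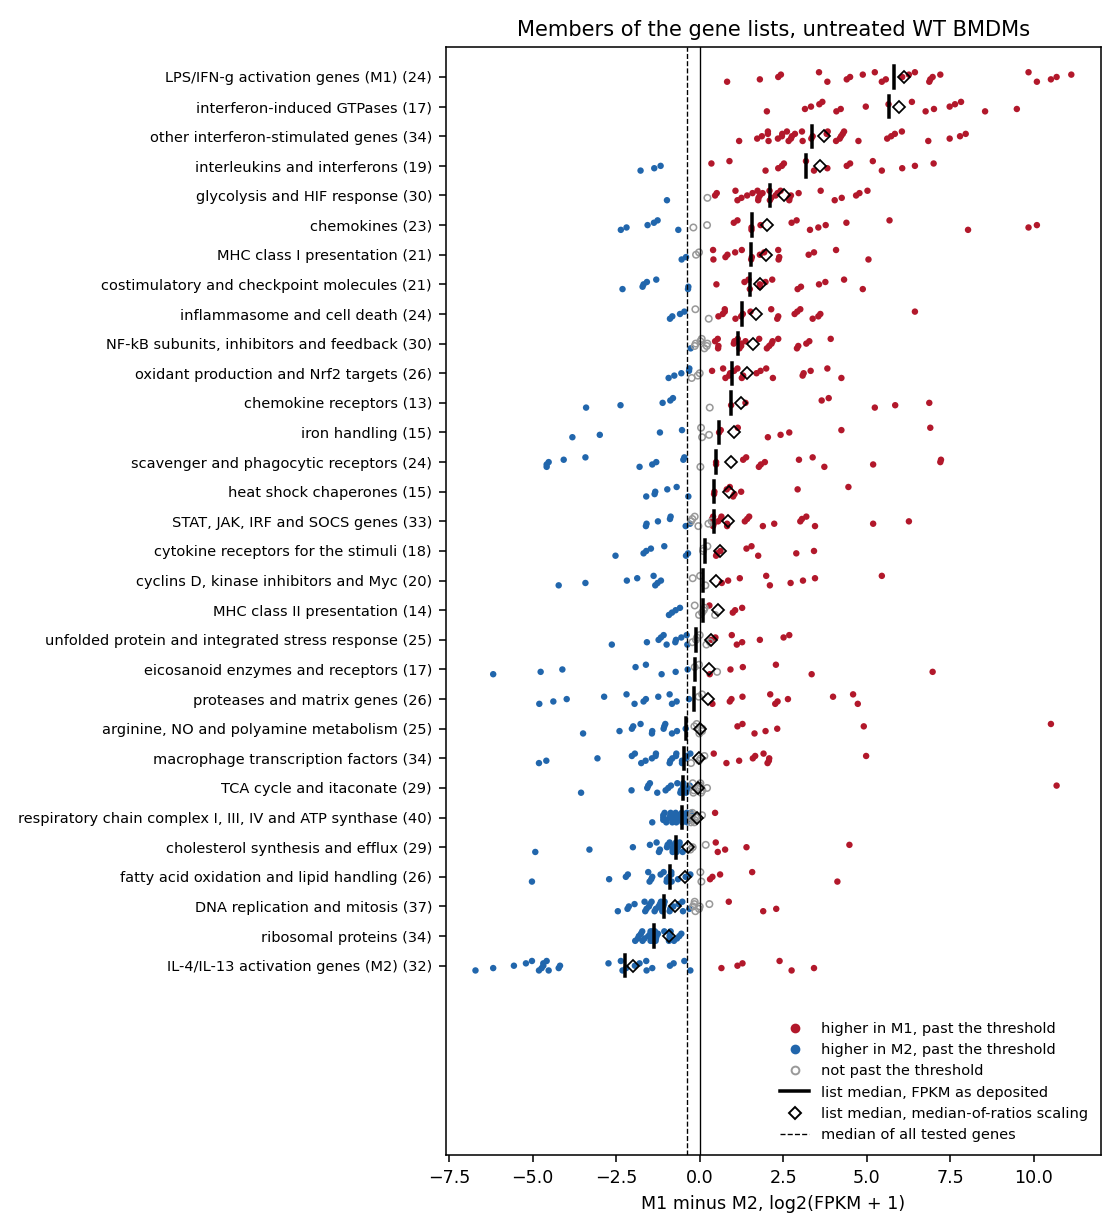
M1 minus M2 on the log2(FPKM + 1) scale (x axis) for the tested members of 31 gene lists (number tested in brackets), with members past the threshold in red or blue by direction and the others as grey rings. Black bars are list medians as deposited and diamonds are medians with median-of-ratios scaling, which lie near 0 for the TCA cycle (-0.06) and the respiratory chain (-0.08) while the bars lie at -0.49 and -0.53.

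Genes of the signalling pathways differed with their stimulus at several steps. In the list of STAT, JAK, IRF and SOCS genes, 20 of the 33 tested were higher in M1, 7 were higher in M2 and 6 did not pass the threshold, with a median of 0.42. The feedback inhibitors *Socs3* (343 to 348 FPKM in M1 and 3.44 to 3.67 in M2) and *Socs1* (295 to 322 FPKM in M1 and 35.5 to 40.3 in M2) and the factors *Irf7* (1142 to 1176 FPKM in M1 and 30.3 to 31.6 in M2) and *Irf1* (458 to 465 FPKM in M1 and 54.1 to 54.7 in M2) were higher in M1. *Socs5*, *Irf4* and *Socs6* had the largest differences in favour of M2, by 1.61, 1.59 and 1.25. *Irf4*, a factor linked to M2 polarization, was at 0.63, 0.72 and 0.63 FPKM in M1 and at 3.6, 4.17 and 4.19 in M2. *Stat6* itself was not past the threshold, at 74.1, 71.7 and 69.6 FPKM in M1 and 61.4, 59.5 and 58.5 in M2 (0.26, adjusted p = 2.96e-05, limma), and was past it with median-of-ratios scaling (0.71). *Jak1* stood at 56.8 to 58.4 FPKM in M1 and 58.6 to 59.3 in M2 (-0.04), and with median-of-ratios scaling at 0.41.

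Among the receptors for the stimuli and growth factors, 8 of the 18 tested were higher in M1, 7 were higher in M2 and 3 did not pass the threshold. Several chains that bind the stimuli were lower in the cells that had received that stimulus than in the cells given the other. Without unstimulated cells, a fall in the former and a rise in the latter cannot be told apart. *Il4ra*, with the values given for it, and *Il13ra1*, its partner, were higher in M1, *Il13ra1* at 26.5 to 28 FPKM in M1 and 2.77 to 2.91 in M2. *Ifngr1*, the ligand-binding chain of the IFN-γ receptor, was at 23.6, 23.5 and 21.5 FPKM in M1 and 71.1, 71.3 and 71.7 in M2, and *Tlr4*, the LPS receptor, at 13.2, 13.1 and 14.1 in M1 and 37.4, 38.5 and 40.1 in M2. The second chain, *Ifngr2*, was higher in M2 by 0.41 and had the opposite sign with median-of-ratios scaling (0.04). Others went the other way: *Cd14*, the co-receptor for LPS, stood at 235 to 239.6 FPKM in M1 and 152 to 159 in M2, and *Il13ra2*, a decoy receptor for IL-13, at 0 to 0.03 FPKM in M1 and 4.34 to 5.27 in M2. *Csf1r* was higher in M2 by 1.68, and *Il10ra*, a chain of the IL-10 receptor, was higher in M1 by 1.75.

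Of the NF-κB list, 22 of the 30 tested were higher in M1, 1 was higher in M2 and 7 did not pass the threshold, 10 being at least 4-fold higher in M1. The largest difference was that of the adaptor *Traf1* (80.3 to 81.6 FPKM in M1 and 4.13 to 4.89 in M2). Next were the inhibitors that NF-κB induces, *Tnfaip3* (A20) at 83.2 to 85.8 FPKM in M1 and 7.67 to 8.01 in M2 and *Nfkbia* (IκBα) at 235 to 252 FPKM in M1 and 30.7 to 31.3 in M2, with the adhesion molecule *Icam1* (189.7 to 196 FPKM in M1 and 19.6 to 21.1 in M2) between them. Of the subunits, *Nfkb2* (1.14) and *Relb* (1.04) were higher in M1. *Rela*, at 62.8 to 64.9 FPKM in M1 and 55.8 to 62.1 in M2, and *Nfkb1*, at 40 to 40.5 FPKM in M1 and 39.7 to 39.8 in M2, were not past the threshold as deposited, and were past it with median-of-ratios scaling (0.58 and 0.46). *Rel* was the single member higher in M2, by 0.27, and had the opposite sign with median-of-ratios scaling (0.13).

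Genes of secreted signals differed in both directions. Of the chemokines, 15 of the 23 tested were higher in M1, 6 were higher in M2 and 2 did not pass the threshold, with 10 at least 4-fold higher in M1 and 2 in M2. *Ccl5*, which draws T cells and monocytes, was at 5280.0, 5399 and 5449 FPKM in M1 and at 20.7, 19.1 and 19.1 in M2. *Ccl2*, the monocyte chemokine, was at 1039 to 1055 FPKM in M1 and 82.9 to 91.5 in M2. *Ccl24*, the eosinophil chemokine eotaxin-2, was at 1.12, 1.4 and 0.81 FPKM in M1 and at 9.14, 11 and 9.16 in M2, and *Cxcl12*, the ligand of CXCR4, at 0.04, 0.05 and 0.12 in M1 and 3.99, 3.62 and 4.02 in M2. *Cxcl12* is also a marker of stromal cells, whose markers moved with M2, and their part in this value was not tested. *Ccl6* was higher in M2 by 1.56. Of the chemokine receptors, 7 of the 13 tested were higher in M1, 5 were higher in M2 and 1 did not pass the threshold. *Ccr7*, which directs cells to lymph nodes, was at 37.4, 35.6 and 37.6 FPKM in M1 and was listed at 0 in all 3 M2 libraries. The formyl peptide receptors *Fpr1* and *Fpr2* were higher in M1 by 5.85 and 6.87. *Cxcr4* (13.7 to 14.9 FPKM in M1 and 155 to 165 in M2) and the complement receptor *C5ar1* (33.8 to 34.5 FPKM in M1 and 172 to 190.2 in M2) were higher in M2.

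Of the interleukins and related cytokines, 16 of the 19 tested were higher in M1, 13 of them at least 4-fold, and 3 were higher in M2. *Il1rn*, the natural antagonist of IL-1, was at 1782, 1746 and 1842 FPKM in M1 and at 13.5, 12.4 and 12.9 in M2, above *Il1b* and *Il1a* in FPKM in both states. *Il10*, an anti-inflammatory cytokine, was higher in M1 as well, at 12.7, 11.3 and 11.2 FPKM against 1.11, 1.5 and 1.07. The 3 higher in M2 were *Csf1*, *Tgfb1* and *Il16*. *Tgfb1*, a cytokine of tissue repair, was at 108, 104 and 102 FPKM in M1 and at 277, 282 and 250.3 in M2, and *Csf1*, the macrophage growth factor, at 5.63 to 6.91 FPKM in M1 and 23.1 to 24.2 in M2.

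Genes of antigen presentation were mostly higher in M1 for class I and lay on both sides for class II. Of the MHC class I list, 17 of the 21 tested were higher in M1, 2 were higher in M2 and 2 did not pass the threshold, with a median of 1.54. The peptide transporter *Tap1* was at 217, 218 and 215 FPKM in M1 and at 11.8, 13.3 and 10.8 in M2, and the class I gene *H2-Q6* was higher by 5.05, although *H2-Q6* and *H2-Q7* are close copies whose reads may be split. Of the MHC class II list, 4 of the 14 tested were higher in M1, 4 were higher in M2 and 6 did not pass the threshold, and none differed by 4-fold. *H2-Ab1*, a class II chain, was at 300.1, 307 and 290.4 FPKM in M1 and at 273, 275 and 277 in M2 and did not pass (0.12), whereas *H2-Aa*, its partner, was at 224, 220.1 and 225 in M1 and 407, 395 and 393 in M2 (-0.83). *Cd74*, the invariant chain that guides class II, was higher in M2 by 0.92. Of the 4 higher in M1, *Cd1d1*, *H2-Ob* and *H2-Oa* had the largest differences. With median-of-ratios scaling 9 of the 14 class II genes were higher in M1 and 3 in M2. Of the costimulatory and checkpoint molecules, 14 were higher in M1 and 7 in M2. The 2 ligands of PD-1 went opposite ways. *Cd274* (PD-L1) was at 708, 693 and 737 FPKM in M1 and 33.8, 36.1 and 34.6 in M2, and *Pdcd1lg2* (PD-L2) at 1.63, 1.74 and 1.63 in M1 and 12.6, 12 and 12 in M2. *Cd40*, the receptor for T cell help, was higher in M1 by 4.88, and the inhibitory receptors *Cd200r1* and *Vsir* were higher in M2 by 1.71 and 1.68.

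Scavenger and phagocytic receptors were divided between the states: 13 of the 24 tested were higher in M1, 10 were higher in M2 and 1 did not pass the threshold, with 6 at least 4-fold higher in M1 and 5 in M2. *Marco*, a scavenger receptor for bacteria, was at 153, 157 and 145 FPKM in M1 and at 0.05, 0.06 and 0 in M2, and *Clec4e* (Mincle), a receptor for mycobacterial glycolipid, was higher in M1 by 7.22. On the other side were *Clec7a* (Dectin-1), a receptor for fungal glucan, at 24.3, 24.7 and 26.4 FPKM in M1 and 595, 588 and 616 in M2, and *Gas6*, a bridging ligand for dying cells, at 4.94 to 5.42 FPKM in M1 and 144 to 150.0 in M2. *Trem2*, a lipid receptor, was at 67.1 to 73.8 FPKM in M1 and 749.8 to 778 in M2.

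In the list of arginine, nitric oxide and polyamine genes, 7 of the 25 tested were higher in M1, 13 were higher in M2 and 5 did not pass the threshold, near the 22.5% and 54.7% of all tested genes. With median-of-ratios scaling 12 were higher in M1 and 11 in M2. *Ass1*, which recycles citrulline to arginine, was at 331, 326 and 323 FPKM in M1 and at 9.43, 9.64 and 10.6 in M2, and *Smox*, which oxidizes spermine, at 101 to 105 FPKM in M1 and 18.9 to 20.9 in M2. Members of polyamine synthesis were higher in M2: *Srm*, the spermidine synthase, was at 1.24, 1.39 and 1.43 FPKM in M1 and 24.5, 26.5 and 25.4 in M2, and *Amd1*, which supplies its cosubstrate, at 6.28 to 6.74 FPKM in M1 and 29.5 to 29.9 in M2. *Qdpr*, which recycles the cofactor tetrahydrobiopterin, was higher in M2 by 2.40. *Odc1*, the first enzyme of polyamine synthesis, was at 19.9, 21.1 and 20.6 FPKM in M1 and 19.4, 17.9 and 21.4 in M2 and did not pass as deposited (0.07), but did with median-of-ratios scaling (0.50).

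Glycolytic genes were higher in M1. Of the glycolysis and HIF list, 28 of the 30 tested were higher in M1, 16 of them at least 4-fold, 1 was higher in M2 and 1 did not pass, with a median of 2.09. The lactate exporter *Slc16a3* was at 409.6, 414 and 400.3 FPKM in M1 and at 11.2, 12.2 and 11.4 in M2, and the oxygen sensor *Egln3* at 39.2 to 41.6 FPKM in M1 and 0.42 to 0.66 in M2. *Hif1a*, the transcription factor of the response, was at 105, 104 and 109 FPKM in M1 and 29.5, 29.4 and 30.7 in M2. The commonly used reference gene *Gapdh* was at 5482, 5446 and 5379.8 FPKM in M1 and 1499, 1508 and 1424 in M2, a difference of 1.88. *Pfkfb4*, an isoform of the enzyme that sets the level of fructose 2,6-bisphosphate, was the member higher in M2, by 0.98.

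Of the TCA cycle genes, 1 of the 29 tested was higher in M1, 19 were higher in M2 and 9 did not pass the threshold, and of the respiratory chain, 1 of the 40 tested was higher in M1, 30 were higher in M2 and 9 did not pass the threshold. Of all tested genes 22.5% were higher in M1 and 54.7% in M2. *Acod1* was the TCA list member higher in M1, and *Cycs* (cytochrome c, 46.5 to 48.9 FPKM in M1 and 32.3 to 36.4 in M2) that of the respiratory chain. On the median-of-ratios scale 8 TCA genes were higher in M1 and 9 in M2, and 5 respiratory chain genes were higher in M1 and 15 in M2. The M2 side kept 9 and 15 genes on all 3 scales, near the share of all tested genes, of which 3724 of 10734 were kept. *Idh1*, the cytosolic isocitrate dehydrogenase, was at 14.1, 15.3 and 15.2 FPKM in M1 and at 186, 182 and 186 in M2, and *Fh1*, the fumarase, at 6.33, 6.8 and 6.75 in M1 and 29, 28.9 and 33.4 in M2. *Sdhb*, a subunit of the succinate dehydrogenase, did not pass, at 85 to 91.6 FPKM in M1 and 85.8 to 95.4 in M2 (-0.05, and 0.40 with median-of-ratios scaling).

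Of the fatty acid list, 5 of the 26 tested were higher in M1, 19 were higher in M2 and 2 did not pass the threshold. Of all tested genes 54.7% were higher in M2. On all 3 scales 16 of the list were higher in M2, against 3724 of all 10734 tested genes. *Lpl*, the lipoprotein lipase, was at 208, 206 and 214 FPKM in M1 and 977, 949.7 and 992 in M2, and *Fabp4*, a fatty acid carrier and *Pparg* target, at 24.8, 29.9 and 29.5 in M1 and 179, 182 and 206 in M2. *Acsl1*, which activates fatty acids with coenzyme A, went the other way, at 226, 226 and 227 FPKM in M1 and 12.1, 12.2 and 11.9 in M2. Of the cholesterol list, 5 of the 29 tested were higher in M1, 21 were higher in M2 and 3 did not pass the threshold, against the same 54.7%, with 15 higher in M2 on all 3 scales. *Apoe*, the apolipoprotein of cholesterol efflux, was at 176, 179.9 and 171 FPKM in M1 and at 5413, 5305 and 5246 in M2, a difference of -4.92 ± 0.0298. *Dhcr7*, the last enzyme of cholesterol synthesis, was at 1.83 to 2.15 FPKM in M1 and 27.1 to 28.9 in M2, and *Ch25h*, the interferon-induced cholesterol hydroxylase, was higher in M1 by 4.48.

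Of the oxidant and Nrf2 list, 18 of the 26 tested were higher in M1, 5 were higher in M2 and 3 did not pass the threshold. *Hmox1*, the heme oxygenase, was at 3870.0, 3707 and 3841 FPKM in M1 and at 198, 203 and 202 in M2, and *Sod2*, the mitochondrial superoxide dismutase, at 282 to 284 FPKM in M1 and 18.8 to 19.7 in M2. *Nfe2l2*, which encodes Nrf2 itself, was higher in M2, at 94.2 to 98.8 FPKM in M1 and 161 to 167 in M2. Of the iron genes, 8 of the 15 tested were higher in M1 and 4 in M2. *Lcn2*, which withholds iron from bacteria, was at 229, 221 and 229 FPKM in M1 and 1.07, 0.71 and 0.95 in M2, and *Tfrc*, the receptor for iron uptake, at 3.32, 3.3 and 3.42 in M1 and 58.5, 58.8 and 63 in M2. The cyclooxygenases were divided: *Ptgs2*, the inducible form, was at 562, 548 and 577 FPKM in M1 and at 3.75, 3.48 and 3.25 in M2, the opposite of *Ptgs1*. *Ptges*, which makes PGE2, was higher in M1 by 3.35, and *Hpgd*, which degrades prostaglandins, and *Ltc4s*, which makes leukotriene C4, were higher in M2 by 4.76 and 4.11. Of all 17 tested eicosanoid genes, 6 were higher in M1, 8 in M2 and 3 did not pass, against 8 in M1 and 7 in M2 with median-of-ratios scaling.

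Of the protease and matrix genes, 11 of the 26 tested were higher in M1, 13 were higher in M2 and 2 did not pass the threshold, against 12 in M1 and 11 in M2 with median-of-ratios scaling. The metalloproteases *Mmp13* (311 to 326 FPKM in M1 and 12 to 12.7 in M2) and *Mmp14* (146 to 149 FPKM in M1 and 8.2 to 8.35 in M2) were higher in M1. *Mmp3* (0.31 to 0.58 FPKM in M1 and 37.3 to 38.7 in M2), fibronectin *Fn1* (0.91 to 1.07 FPKM in M1 and 40.1 to 40.7 in M2) and *Timp2* (19.2 to 20 FPKM in M1 and 316 to 332 in M2), an inhibitor of metalloproteases, were higher in M2. Of the inflammasome and cell death genes, 18 of the 24 tested were higher in M1, 4 were higher in M2 and 2 did not pass the threshold, with 10 at least 4-fold higher in M1. The sensor *Nlrp3* was at 42.4, 44.4 and 43.9 FPKM in M1 and 4.6, 4.17 and 4.83 in M2, and the necroptosis effector *Mlkl* at 96.6 to 98.6 FPKM in M1 and 7.22 to 7.66 in M2. *Pycard*, the adaptor between sensor and caspase, was higher in M2, at 12.6 to 14 FPKM in M1 and 19.9 to 21.1 in M2 (-0.59), and did not pass with median-of-ratios scaling (-0.16).

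Genes of ribosomes and of DNA replication were mostly higher in M2, on each of the 3 scales. All 34 genes of the ribosomal protein list were higher in M2, against 54.7% of all tested genes, with a median of -1.38, and none differed by 4-fold. On all 3 scales 31 of them were higher in M2, against 3724 of all 10734 tested genes. *Eef1a1*, the elongation factor of that list, was at 1309, 1319 and 1309.7 FPKM in M1 and at 4224, 4273 and 4369 in M2. Ribosomal protein genes have many processed pseudogenes, so the assignment of their reads is uncertain. Of the 17 replication-dependent histone genes, 16 were in the files of both stimuli and 2 were tested, *Hist1h1c* and *Hist1h2bc*, which were higher in M2 by 0.94 and 0.84. Most such transcripts lack a poly(A) tail, and the other 14 were under 1 FPKM in all 6 libraries. Of the DNA replication and mitosis genes, 3 of the 37 tested were higher in M1, 27 were higher in M2 and 7 did not pass the threshold, with 23 higher in M2 on all 3 scales. *Mcm2*, a subunit of the replicative helicase, was at 0.78, 0.84 and 0.83 FPKM in M1 and 8.98, 8.67 and 9.15 in M2. *Mki67*, a proliferation marker, did not pass, at 2.58, 2.78 and 2.9 FPKM in M1 and 3.09, 3.42 and 3.45 in M2, and *Ccne1*, the G1 cyclin E, was higher in M1, at 15.8 to 16.9 FPKM in M1 and 2.52 to 2.64 in M2. The cell cycle inhibitor *Cdkn1a* (p21) was at 686, 672 and 688 FPKM in M1 and 60.5, 62 and 62.4 in M2, and *Cdkn1c* (p57) at 4.03, 3.86 and 3.63 in M1 and 52, 50.4 and 49.7 in M2. In the list of cyclins, inhibitors and Myc factors, 9 of the 20 tested were higher in M1 and 8 in M2, with *Mxd1*, an antagonist of Myc, higher in M1 by 5.45 and *Myc* higher in M2 by 4.22.

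Of the macrophage transcription factors, 10 of the 34 tested were higher in M1, 20 were higher in M2 and 4 did not pass the threshold, with 13 in M1 and 14 in M2 by median-of-ratios scaling. These counts were near the 22.5% and 54.7% of all tested genes. *Spi1* (PU.1), the master factor of the lineage, did not pass, at 291, 292 and 277 FPKM in M1 and 306, 304 and 263 in M2, and was at 0.43 with median-of-ratios scaling. *Batf2*, induced by interferon, was higher in M1 by 4.98, and *Cebpb*, an activator of inflammatory genes, by 2.08. *Cebpa*, a factor of myeloid differentiation, was at 3.04, 3.38 and 3.11 FPKM in M1 and 104, 99.3 and 95.8 in M2. The stress lists held calls in both directions, with 8 higher in M1 and 11 in M2 of the 25 unfolded protein and integrated stress genes, which became 13 and 7 with median-of-ratios scaling, and 9 and 6 of the 15 heat shock genes. *Hspa1a*, the inducible Hsp70, was higher in M1, at 86.4 to 96 FPKM in M1 and 3.15 to 3.3 in M2, and *Hspd1*, the mitochondrial chaperonin, was higher in M2, at 21.5 to 22 FPKM in M1 and 65.1 to 73.3 in M2. *Hspa5* (BiP), the chaperone of the endoplasmic reticulum, did not pass, at 294 to 295 FPKM in M1 and 288 to 305 in M2.

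Markers of other cells also moved with the groups. In bulk libraries fewer cells of a type and less RNA per cell cannot be told apart. All 9 fibroblast and stromal markers were tested and higher in M2, 7 of them at least 4-fold, and their summed FPKM was 5.87 to 6.27 in the M1 libraries and 144 to 149 in the M2 libraries. *Dcn*, decorin, led with 1.48, 0.94 and 1.46 FPKM in M1 and 75.7, 74 and 75.8 in M2, and the collagen gene *Col1a1* was at 1.52, 1.65 and 1.48 in M1 and 19.5, 19.5 and 18 in M2. The matrix genes *Fn1* and *Mmp3*, which stromal cells also express, moved the same way, and the part of stromal cells in the M2 differences was not tested. Of 7 tested osteoclast markers 6 were higher in M2, with sums of 43.2 to 44.6 and 586 to 596 FPKM, the latter mostly from *Atp6v0d2*, while *Acp5*, the osteoclast phosphatase, did not pass at 16.4 to 17.8 FPKM in M1 and 13.4 to 14.8 in M2.

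Of 12 neutrophil markers, 9 were in the files of both stimuli, with a summed FPKM of 48.6 to 56.4 in M1 and of 2.76 to 3.43 in M2. Of the 6 tested, 5 were higher in M1. The granule genes *Ngp* and *Ltf* were at 7.38, 8.67 and 9.46 and at 2.1, 2.43 and 2.17 FPKM in the M1 libraries and listed at 0 in the M2 libraries. *Mpo* and *Elane*, which mark neutrophil precursors, were listed at 0 in all 6 libraries. *S100a9*, listed in the M1 files alone, was at 10.6, 13.8 and 16.4 FPKM. Heart muscle genes showed the same pattern, with *Myl2* at 3, 5.01 and 5.42 and *Tnnt2* at 1.65, 1.87 and 2.26 FPKM in M1 and between 0 and 0.04 in M2, and *Actc1*, chosen after its values were seen, at 1.43 to 2.39 FPKM in M1 and 0 to 0.08 in M2. Their part in the M1 differences was not tested. The defining genes of B cells (*Cd79a*), T cells (*Cd3g*), red cells (*Alas2*), mast cells (*Cpa3*) and epithelial cells (*Epcam*) were at most 0.27 FPKM in all 6 libraries. The list sums were at most 0.86 FPKM for B cells, 4.99 for T and NK cells, 3.08 for mast cells and basophils and 2.51 for epithelial cells in any of the 6 libraries. Between 0 and 2 genes of each of these lists were tested, and those higher in M2 were *Cd4*, *Kit* and *Cdh1*, while *Lck* was higher in M1. The list of red cells and platelets summed to 52.37 to 59.89 FPKM in M1 and 6.16 to 8.41 in M2, nearly all of it from the chemokine *Pf4*. The dendritic cell list summed to 822 to 856 FPKM in M1 and to 193 to 211 in M2, almost all of it from *Bst2*. *Bst2* is also an interferon-stimulated gene. The 3 tested genes of that list, *Bst2*, *Xcr1* and *Dpp4*, were all higher in M1, 1 of them at least 4-fold. The dendritic cell genes *Flt3* and *Zbtb46* were under 1 FPKM. Of the 5 dopamine receptors, *Drd1* and *Drd4* were in the files of both stimuli and under 1 FPKM, and none was tested. None of the 13 mitochondrially encoded genes was in the files, so their share could not be used as a sign of RNA quality.

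The same comparison was available in untreated *DRD5*-/- BMDMs, with 3 M1 and 3 M2 libraries that the WT comparison did not use. These libraries belong to the same M1 and M2 sets as those of WT. *Drd5* itself was listed in the M2 files alone, at 0, 0.06 and 0 FPKM in WT, so its level in M1 and the labelled genotype could not be checked. The difference between M1 and M2 itself differed between WT and *DRD5*-/- for 385 of the 10734 genes (3.59%), at an adjusted p under 0.001 and 1.2-fold in the interaction of limma. It was more positive in WT for 84 genes and more negative in WT for 301. Of the 385, 39 differed by at least 2-fold between the genotypes and 6 by at least 4-fold. None of the 5 markers was among them, and *Arg1* had an interaction of 0.05 (adjusted p = 0.546, limma).

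Among the lists, interferon-stimulated genes had the most calls. M1 minus M2 was more negative in WT, and thus smaller, for 19 of the 34 interferon-stimulated genes and for 5 of the 17 GTPases, and more positive for 1 and 0. *Irf7*, the amplifier of type I interferon, was at 1176, 1165 and 1142 FPKM in M1 WT and at 1211, 1243 and 1190.0 in M1 *DRD5*-/-. In M2 it was at 31.6, 30.4 and 30.3 FPKM in WT and at 12.9, 11.8 and 13.8 in *DRD5*-/-. The genotypes did not overlap in either state, with WT lower in M1 and higher in M2. *Ly6e* was at 122, 128 and 130.0 FPKM in M2 WT and at 50.1, 50 and 52 in M2 *DRD5*-/-, and *Oas3* at 16.7, 17.6 and 16.7 and 8.94, 8.11 and 8.78. The interactions were -1.27 for *Irf7*, -1.36 for *Ly6e*, -1.02 for *Oas3* and -0.96 for *Oasl2*. Of the 14 MHC class II genes, 7 also had a more negative difference in WT and 0 a more positive one. *H2-Aa* was at 212, 222 and 205 FPKM in M1 and 245, 255 and 247 in M2 of *DRD5*-/- BMDMs, nearer to each other than in WT. *Tgfbi*, a matrix protein induced by TGF-β, was at 56.5, 56.6 and 59.6 FPKM in M2 WT and 30, 30.4 and 29.2 in M2 *DRD5*-/-, and between 289 and 299 in M1 of either genotype.

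Of the 5 genes with the smallest adjusted p and a more positive difference in WT, *Ngp* and *Ltf* mark neutrophils and *Myl2* and *Tnnt2* heart muscle. *Ngp* was at 0.09, 0.04 and 0.17 FPKM in M1 *DRD5*-/- libraries against the 7.38 to 9.46 of M1 WT, *Ltf* at 0.02, 0.02 and 0.05 and *Myl2* at 0 in all 3. The remaining gene was the predicted gene *Gm43828*, which was at 1.69, 1.43 and 1.82 FPKM in M2 WT and 12.1, 11.2 and 11.8 in M2 *DRD5*-/-. Stromal markers differed in the M2 libraries, where their sum was 144 to 149 FPKM in WT and 93.6 to 97.6 in *DRD5*-/-, and the neutrophil sum in M1 was 28.4 to 30.6 in *DRD5*-/-. The part of these cells in the interaction was not tested.

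**Figure D4:**
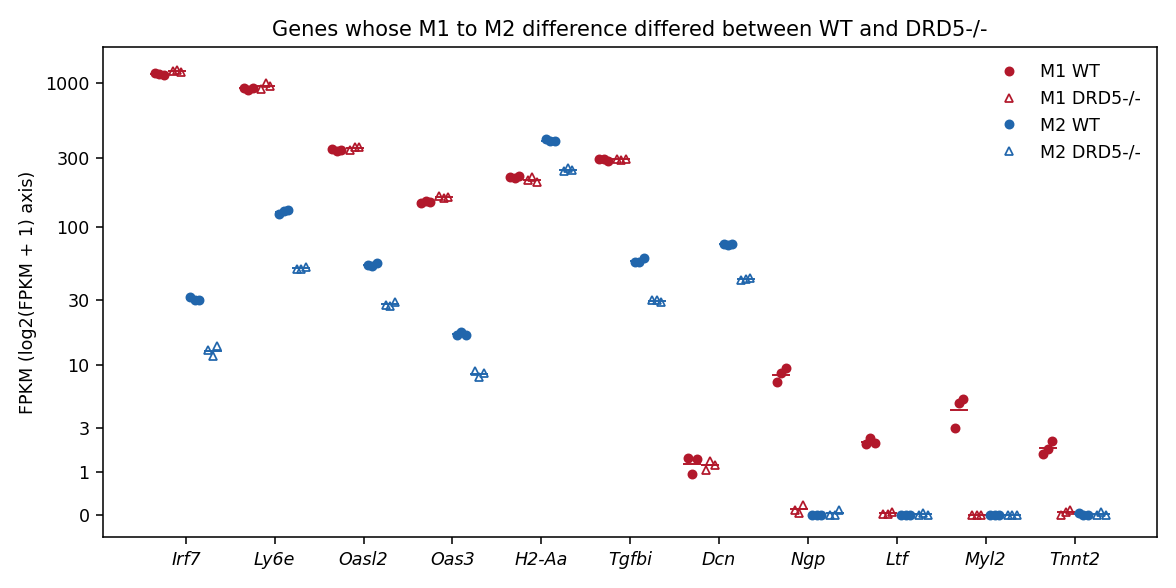
FPKM of 11 genes on a log2(FPKM + 1) axis in the untreated libraries of WT (filled circles) and *DRD5*-/- BMDMs (open triangles), M1 in red and M2 in blue, where each symbol is a library and each line the mean of its group. The 4 interferon-stimulated genes at the left differ between genotypes in M2, as *Irf7* with 30.3 to 31.6 FPKM in WT and 11.8 to 13.8 in *DRD5*-/-, whereas *Ngp*, *Ltf*, *Myl2* and *Tnnt2* at the right are above 1 FPKM in M1 WT alone.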

How the data were processed

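RNA was sequenced in 24 libraries of BMDMs, 12 of M1 and 12 of M2 cells, and the 6 of untreated WT cells entered the main comparison. The values are FPKM, which the authors computed and deposited as a list of genes per library. Per the study's methods, reads came from a BGISEQ-500 and were aligned with HISAT2 to the p5 patch of GRCm38, whereas the submitters' processing notes name Bowtie2 2.2.5 and GRCm38.p6. How reads shared by gene copies were assigned, and whether counting used strand, is not given in the sources used here. FPKM are relative within a library, so a few abundant genes lower all others, and read counts cannot be recovered from them. Depth is therefore unknown.

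Genes were joined by gene ID over the files of both stimuli and kept at an FPKM of 1 or more in at least 3 of the 6 libraries. A pseudocount of 1 was added, and M1 was compared with M2 by limma 3.58.1 (R 4.3.3) with a trended prior and Benjamini-Hochberg adjustment over all tested genes. Genes were called at an adjusted p under 0.001 with at least 1.2-fold, the cutoffs of the study's methods. The genotype comparison was the interaction in the same kind of fit over 12 untreated libraries. The fit was tested on simulated data in which few genes changed and no shift of scale was built in. That test does not cover data in which most genes differ, as here. Python 3.11.15, numpy 2.4.6, pandas 2.3.3 and matplotlib 3.10.9 did the joins, motif searches and plots. Gene coordinates and promoters are those of RefSeq for GRCm38.p6.

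The comparison, the 44 gene lists and the tests were chosen with earlier results of these data known. The text names the 5 markers, the 12 largest differences in each direction without overlap of the groups, up to 3 members of each list with the largest differences in each direction, members of lists that did not pass, the 5 genes listed in the files of 1 stimulus with the highest FPKM, and the 5 smallest adjusted p of the interaction in each direction. Genes outside this rule, such as *Adgre1*, *Stat6*, *Tlr4*, *Hif1a*, *Gapdh*, *Arg2*, *Actc1* and *Cd14*, were added after their values were seen. Alternatives were another pseudocount, filter, scaling, threshold, set of libraries, a correction for GC content and length, a replicate block and leaving out each library. Some items that the rule names are not reported here. The DA-treated libraries entered an alternative fit alone.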

Additional observations from a re-analysis of the deposited data

Results flagged for a closer look

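The difference between M1 and M2 differed between WT and *DRD5*-/- BMDMs for 385 genes by the interaction of limma (adjusted p under 0.001 and 1.2-fold). The values are the M1 minus M2 difference of WT less that of *DRD5*-/- on the log2 scale. Interferon-induced genes were more negative in WT, namely *Ly6e* (-1.36), *Irf7* (-1.27), *Oas3* (-1.02), *Oasl2* (-0.96), *Isg15* (-0.77), *Oasl1* (-0.76), *Rsad2* (-0.68) and *Gbp2* (-0.50). The chemokines *Ccl24* (-0.93), *Ccl22* (-0.49), *Ccl5* (-0.48) and *Ccl2* (-0.40), the lectins *Mgl2* (-0.96) and *Clec10a* (-0.86), and the MHC class II genes *H2-Ab1* (-0.66), *Cd74* (-0.65) and *H2-Aa* (-0.61) were more negative in WT as well. Of the chemokine list, 5 genes were more negative in WT and 3 more positive, the latter being *Ccl4* (0.58), *Cxcl14* (0.55) and *Ccl3* (0.35). More negative too were *Ass1* (-0.91), *Cdkn1a* (-0.80), *Klf4* (-0.77), *Traf1* (-0.60), *Hspa1a* (-0.56), *Socs3* (-0.52), *Ptgs2* (-0.50), *Ptgs1* (-0.43), *Cd14* (-0.34) and *Cd86* (-0.33). Genes that stromal or epithelial cells also express were *Tgfbi* (-0.94), *Dcn* (-0.76), *Cdh1* (-0.58) and *Col1a1* (-0.53).

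More positive in WT were the neutrophil genes *Ngp* (3.15) and *Ltf* (1.66), the heart muscle genes *Myl2* (2.42), *Actc1* (1.52) and *Tnnt2* (1.49), and *Gm43828* (2.21), *Lpl* (0.46), *Acp5* (0.41) and *Cd274* (0.28). Of the 385 genes, 34 did not pass the threshold for M1 against M2 in WT, and 24 that passed in WT had the opposite sign in *DRD5*-/-.

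Signals outside the tested genes were those of genes listed in the files of 1 stimulus alone. Of these, 6 in the M1 files reached 1 FPKM in all 3 untreated WT libraries, namely *Gbp10* with a mean of 29.57 FPKM, *Gm15056* with 14.05, *S100a9* with 13.6, *Prm1* with 2.07, *Gm6040* with 2.02 and *Myl3* with 1.21. In the M2 files there were 3, *Chil4* with a mean of 6.12 FPKM, *Cyp21a1* with 3.71 and *Msx3* with 1.47. A gene missing from the files of a stimulus has no value there, so the 2 groups were not compared for it.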

How the results depend on the processing

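Scaling, the pseudocount and the fold cutoff moved a count of genes by more than 1.5 times. With median-of-ratios scaling 3920 genes were higher in M1 and 3895 in M2, in place of 2417 and 5873. The genes 4-fold higher in M2 numbered 323 with that scaling, 365 with quantile normalization and 1086 with a pseudocount of 0.1, in place of 554, and those 4-fold higher in M1 numbered 661, 577 and 661 in place of 474. A cutoff of 2-fold left 3743 genes of either direction. Under the other alternatives the count of genes past the threshold stayed between 7757 (quantile normalization) and 8551 (adjusted p under 0.05), and leaving out each library in turn gave 8012 to 8151. The interaction count lay between 257 (no filter on low values) and 525 (all 24 libraries).

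Over 176 named genes and 2815 recomputed values, 2750 kept their direction and their side of the threshold. The sign changed for *Rel* (0.131 with median-of-ratios scaling and 0.096 with quantile normalization), *Klf4* (0.135 and 0.078), *Jak1* (0.410 and 0.008), *Mki67* (0.138 and 0.239) and *Spi1* (0.435 and 0.001). With median-of-ratios scaling it changed for *Sdhb* (0.402) and *Ifngr2* (0.037) too. It also changed for *Spi1* when rescaled to a common sum (0.011), and with the correction for GC content and length for *Spi1* (0.114), *Sdhb* (0.110), *Nfkb1* (-0.076) and *Hspa5* (-0.054). *Fth1* fell to 0.000 with quantile normalization, without a change of sign. It was first in FPKM in all 6 libraries, and quantile normalization gives the top gene of each library the same value. Leaving out each library gave -0.087 to 0.019 for *Spi1* and -0.011 to 0.030 for *Hspa5*. Of 560 list medians, read against the median of all tested genes, 2 changed sign, both with quantile normalization: proteases and matrix genes at -0.076 and the stress response genes at -0.037. The size factors of median-of-ratios scaling differed between M1 and M2 by -0.45 on the log2 scale, which by construction moves the signs it changed. The cause of the other changes of sign was not tested.

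The labels number the replicates 1 to 3 in each group, but nothing says that a number marks a shared animal or day. Residuals of same-numbered M1 and M2 libraries correlated at 0.018, 0.013 and 0.114 across genes, and not every library correlated best with its own number. A fit with the replicate block called 8100 genes, 2370 of them higher in M1, and 329 for the interaction.

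Depth is unknown, so small values cannot be given a counting error. With 3 libraries a group, and no statement on separate mice or cultures, whether the spread is more than technical is unknown. Stimulus and set of libraries cannot be told apart.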
